A study of Brassica rapa subsp. pekinensis with 6 samples.

Results

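Flavonoids are plant phenolics that colour flowers and seeds and, as flavonols, accumulate in anthers and pollen of many species. Chalcone synthase (CHS) makes the first chalcone, flavanone 3-hydroxylase (F3H) turns the flavanone into a dihydroflavonol, and flavonoid 3'-hydroxylase (F3'H) adds a hydroxyl group to its side ring. From the dihydroflavonols one branch leads to flavonols, and another, through dihydroflavonol reductase (DFR) and anthocyanidin synthase (ANS), to anthocyanins and proanthocyanidins. TT8 is a bHLH transcription factor known from Arabidopsis as an activator of the late branch, DFR included. Described here are 10 genes of this pathway out of 35421 genes with a read: 4 copies of CHS, 1 F3H, 1 F3'H, 1 DFR, 2 copies of ANS and the regulator TT8. They were chosen by a list of Bra identifiers, and their names are those of that list, since the deposited tables carry identifiers only. No reference table used here paired any of the 10 identifiers with a name or a sequence, so the names were not checked against sequence and no sequence is shown.

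The data were counts of uniquely assigned reads per gene in Chinese cabbage (Brassica rapa subsp. pekinensis), from developing flower buds of plants in full bloom. The msm group held 3 libraries from a male sterility mutant of that name, numbered 1, 2 and 3, and the wild-type group held 3 libraries from the line FT, numbered 1, 2 and 4. The sources used here do not give the gene affected in msm, the way it was mutated or the number of plants behind a library. Nothing says that the libraries came from separate plants, so every p-value reflects the spread among libraries only, and that spread may be technical. The depth averaged 25534727 ± 600111 reads in msm and 25156752 ± 216956 reads in wild type (SD, n = 3 each). Whole buds were sequenced, so fewer cells of a type and less RNA per cell cannot be told apart, and without gene names the tissue could not be checked against bud or anther markers. Levels are given in RPKM, the reads of a gene scaled to its coding length and to the total of its library, so that genes can be compared with each other.

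The pathway was read strongly as far as F3'H and very weakly from DFR on, in both groups. The 5 members read strongly were the CHS copies Bra008792, Bra023441 and Bra006224, the F3H gene Bra036828 and the F3'H gene Bra009312. No value of these 5 lay below 59.2 RPKM, and no value of the DFR gene, the ANS copies or TT8 lay above 2.19 RPKM. Together the 5 had 24018, 26211 and 24522 reads in the msm libraries, against 29801, 26516 and 28586 reads in the wild-type libraries. DFR and both ANS copies together had 46, 47 and 58 reads in the msm libraries, against 71, 40 and 63 reads in the wild-type libraries. The late enzymes thus made up 0.202% ± 0.03 of the enzyme reads in msm and 0.203% ± 0.046 in wild type (SD, n = 3 each), and the groups overlapped. The break lay between F3'H and DFR. The level of F3H was 422-fold, 643-fold and 1061-fold that of DFR in the msm libraries, against 1548-fold, 504-fold and 668-fold in the wild-type libraries, with a spread set by 4 to 16 DFR reads per library.

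**Figure D1:**
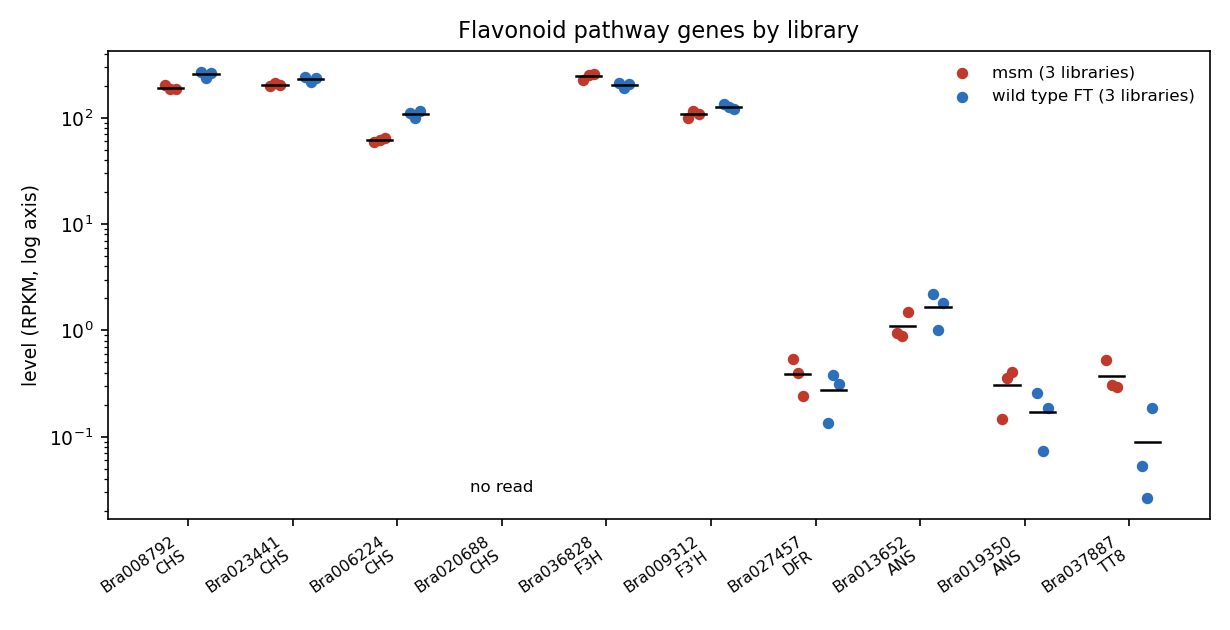
Level of each member in each library in RPKM (log axis); points are libraries, msm in red at the left and wild type in blue at the right of each pair, and black lines are group means. The 3 CHS copies with reads, F3H and F3'H lie at 59.2 RPKM or more, and the other members with reads at 2.19 RPKM or less; Bra020688 had no read.

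Setting msm against FT addresses which pathway genes differ in buds of the sterile plants. The 3 CHS copies with reads and F3'H fell moderately in msm, the F3H gene was not lowered with them, and TT8 was higher in msm on very few reads. Genes were tested with edgeR's quasi-likelihood test on the counts, fitted to all 29104 genes that passed the filter on low counts, with TMM scaling and p-values adjusted over all of them by Benjamini-Hochberg. Of the 10 members 8 were tested. Bra020688 had no read and the ANS copy Bra019350 was too low. At an adjusted p below 0.05, 5 of the 8 tested members were lower in msm, against 30.1% of all tested genes, and 1 was higher, against 26.8%. The 5 were the 3 CHS copies with reads, F3'H and the ANS copy Bra013652. With scaling to total counts 4 members were lower and 2 higher, against 19.9% and 45.7% of all tested genes, as the call of Bra013652 was lost and F3H was called higher. With a change of at least 2-fold required as well, 1 member was lower and 1 higher, against 12.5% and 4.64% of all tested genes. The median log2 fold change (msm over wild type) was -0.43 over the 8 tested members and 0.005 over all tested genes. These counts describe the members only: TT8 passed the filter through its msm reads alone, and a list this small was not tested as a set.

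CHS, the entry enzyme of the pathway, was lower in msm in every copy with reads. Bra008792 had 203, 188.9 and 185 RPKM in the msm libraries, against 269.8, 237 and 265 RPKM in the wild-type libraries. Every msm library lay below every wild-type library. The log2 fold change was -0.63 ± 0.06 (SE), with an adjusted p of 4.24e-10 in edgeR. Bra023441 had 197, 212 and 202 RPKM in the msm libraries, against 241, 217 and 239 RPKM in the wild-type libraries. It was the copy lowered least, at a log2 fold change of -0.41 ± 0.06 (SE; adjusted p = 1.28e-06, edgeR), and its groups lay close together, with 212 RPKM in the highest msm library and 217 RPKM in the lowest wild-type library. Bra006224, the weakest of the copies with reads, had 59.2, 61.3 and 64.5 RPKM in the msm libraries, against 111, 100.3 and 116 RPKM in the wild-type libraries.

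Bra006224 was the CHS copy lowered most and the single member called lower by at least 2-fold. Its log2 fold change was -1.04 ± 0.07 (SE), with an adjusted p of 1.91e-14 in edgeR. That estimate stands at the edge of the 2-fold rule: with scaling to total counts it was -0.82 and with upper quartile scaling -0.95, both under 2-fold, and the test against a 2-fold change did not call it (adjusted p = 0.699, edgeR). It fell under each of these scalings. A fold change depends on the scaling because the TMM factors differed between the groups, at 1.07 to 1.08 in msm and 0.925 to 0.929 in wild type. Scaling to total counts, which RPKM also uses, moved the median log2 fold change of all tested genes to 0.22.

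The fourth CHS copy, Bra020688, had no read in any library. At a one-sided confidence of 95%, a count of 0 allows up to 3 reads. That is 0.115 to 0.12 RPM in the msm libraries and 0.118 to 0.12 RPM in the wild-type libraries. RPM scales by library depth alone, since no table lists the length of this gene. An msm library had 13422 to 14350 CHS reads and a wild-type library 16504 to 18749. The bound of 3 reads came to at most 0.0224% of them in msm and 0.0182% in wild type. Only uniquely assigned reads were counted. Reads that match several copies equally well could have been lost from any copy, and their part in this result was not tested.

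Summed over its copies CHS had 459, 462 and 452 RPKM in the msm libraries, against 622, 554 and 619.8 RPKM in the wild-type libraries. The summed reads do not depend on which copy a read was placed on. Reads that match several copies equally well could still be missing from the sum, which was not tested. The summed reads were lower in msm at a log2 fold change of -0.60 ± 0.06 (SE; adjusted p = 2.95e-10, edgeR), and at -0.39 with scaling to total counts (adjusted p = 1.02e-06, edgeR). The coefficient of variation of this sum was 1.07% in msm and 6.41% in wild type. For the single copies with reads it was 3.54% to 4.83% in msm and 5.63% to 7.44% in wild type. The difference in spread was not tested.

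The copies made up different shares of CHS in the groups, in a design whose permutation test cannot reach 0.05. Bra006224 made up 13.5% ± 0.701 of the summed CHS level in msm and 18.2% ± 0.456 in wild type (SD, n = 3 each). Bra023441 made up 44.5% ± 1.45 in msm and 38.8% ± 0.327 in wild type (SD, n = 3 each). For both copies the groups did not overlap, which gives an exact two-sided permutation p of 0.1, the smallest that 3 against 3 libraries allow (0.125 after Benjamini-Hochberg adjustment over the 5 copy shares tested, 3 of CHS and 2 of ANS). The share of Bra008792 was 42.03% ± 1.86 in msm and 42.9% ± 0.413 in wild type (SD, n = 3 each), and its groups overlapped (exact permutation p = 0.4). Bra023441 led in 2 of the 3 msm libraries. Bra008792 had 1.03, 0.893 and 0.916 times the level of Bra023441 in the msm libraries, against 1.12, 1.09 and 1.11 times in the wild-type libraries, where it led in every library.

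F3H, which makes the dihydroflavonols, was the member with the highest mean level in msm. Bra036828 had 229, 255 and 256 RPKM in the msm libraries, against 211, 191 and 208 RPKM in the wild-type libraries. Every msm library lay above every wild-type library in RPKM, as was the case for 47.5% of all tested genes. On the TMM scale, where 29.3% of all tested genes lay above in this way and TT8 was the single such member, the F3H groups overlapped. Its log2 fold change with TMM scaling was 0.06 ± 0.06 (SE; adjusted p = 0.389, edgeR). With scaling to total counts it was 0.28 (adjusted p = 0.000222, edgeR) and with upper quartile scaling 0.16 (adjusted p = 0.0297, edgeR). Whether F3H was called higher in msm thus depended on the scaling, and its fold change was above 0 under each scaling run.

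F3'H, which sets the hydroxylation of the side ring, was lower in msm. Bra009312 had 99.04, 116 and 109 RPKM in the msm libraries, against 136, 126 and 119.9 RPKM in the wild-type libraries. The groups did not overlap, though msm 2 came close to wild type 4. The log2 fold change was -0.45 ± 0.07 (SE; adjusted p = 1.09e-06, edgeR), and -0.23 with scaling to total counts (adjusted p = 0.00268, edgeR). Over the tested members 4 had every msm library below every wild-type library in RPKM, the 3 CHS copies with reads and F3'H, against 20.8% of all tested genes. The same 4 lay below on the TMM scale, against 32.4% of all tested genes.

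**Figure D2:**
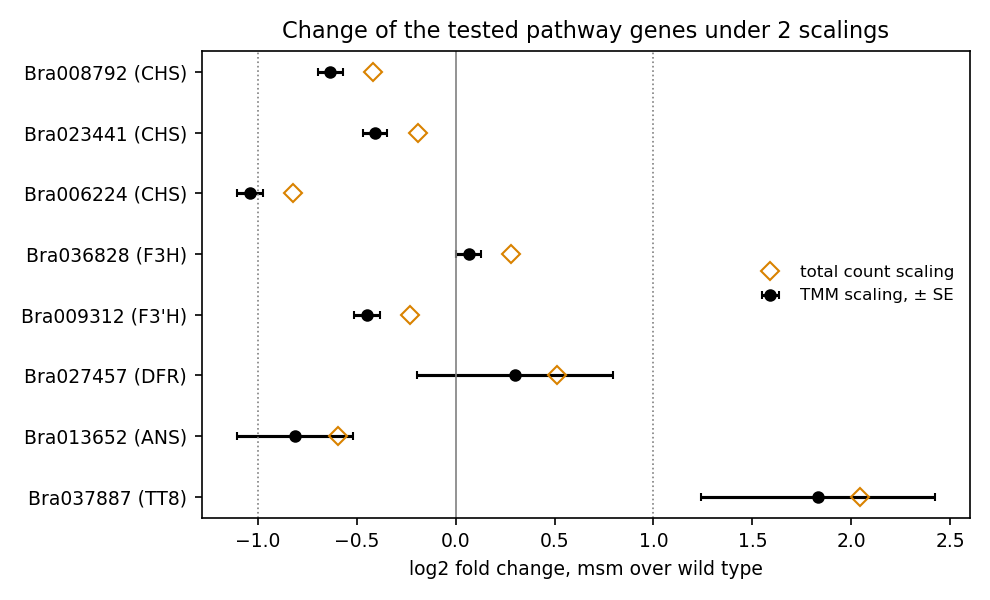
Log2 fold change (msm over wild type) of the 8 tested members in edgeR; black points with bars are TMM scaling with the standard error, open diamonds scaling to total counts, and dotted lines mark 2-fold. The CHS copies, F3'H and the ANS copy Bra013652 lie below 0 and TT8 above 0 under both scalings, while F3H lies at 0.06 with TMM and 0.28 with total counts.

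Ratios between genes of one library do not depend on the scaling between libraries, but they do not show which gene of a pair moved. The ratios of F3H to its neighbours differed between the groups. F3H had 49.9%, 55.1% and 56.7% of the summed CHS level in the msm libraries, against 33.9%, 34.4% and 33.5% in the wild-type libraries. As log2 ratios these averaged -0.89 ± 0.10 in msm and -1.56 ± 0.019 in wild type (SD, n = 3 each). The difference of 0.67 had an exact two-sided permutation p of 0.1, the smallest possible, and 0.2 after adjustment over the 4 pairs of steps compared. From F3H to F3'H the shift ran the other way. The log2 ratio of F3'H to F3H averaged -1.19 ± 0.05 in msm and -0.67 ± 0.10 in wild type (SD, n = 3 each). These groups did not overlap either (exact permutation p = 0.1, adjusted p = 0.2). F3H was therefore higher in msm relative both to the step before it and to the step after it among the members. That held in every msm library compared with every wild-type library. Both ratios contain F3H, so they are not independent. How many other gene pairs separate in this way was not counted. In RPKM, 20.8% of all tested genes had every msm library below every wild-type library, and 47.5% had every one above. With scaling to total counts the log2 fold change of F3H was 0.28, against a median of 0.22 over all tested genes. With TMM scaling the log2 fold change was 0.06 for F3H, -0.60 for summed CHS and -0.45 for F3'H. For the pairs that include DFR the groups overlapped (exact permutation p = 0.4 for DFR against F3'H and 0.5 for ANS against DFR).

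**Figure D3:**
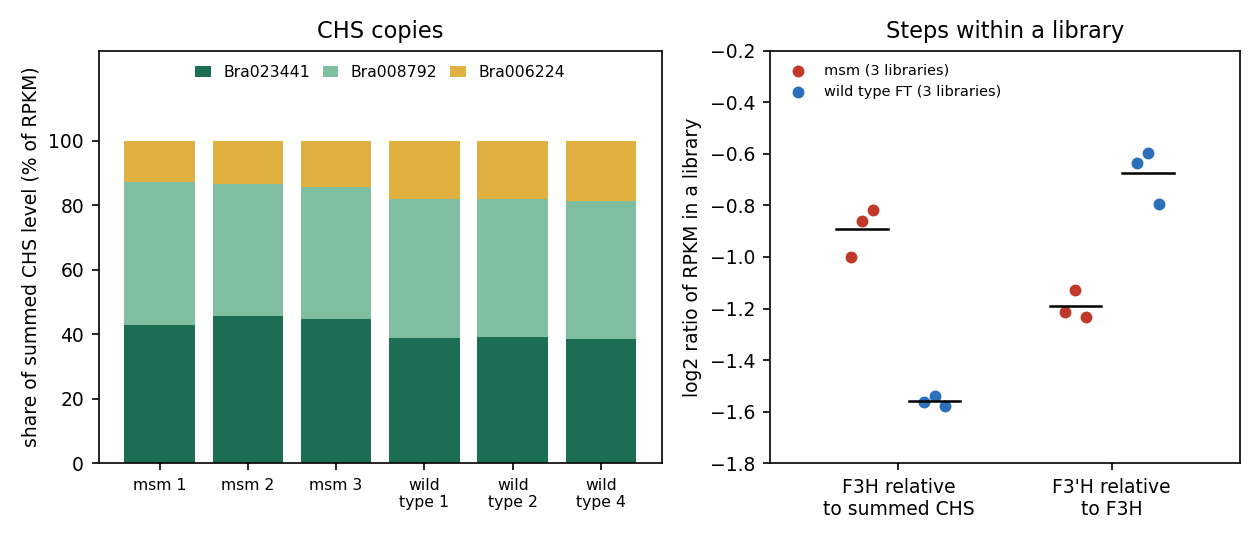
Left, share of each CHS copy in the summed CHS level of a library (% of RPKM), msm libraries before wild-type libraries; right, log2 ratio of RPKM between steps within a library, with points for libraries and black lines for group means. Bra006224 takes a smaller and Bra023441 a larger part in each msm library, and F3H stands higher in msm against CHS and against F3'H.

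The order of the levels differed between the groups at the top. In msm it ran Bra036828 (F3H), Bra023441 and Bra008792 (CHS), Bra009312 (F3'H) and Bra006224 (CHS), and only the ranges of Bra023441 and Bra008792 overlapped. In wild type it ran Bra008792 and Bra023441, whose ranges overlapped, then Bra036828, Bra009312 and Bra006224, with no overlap between these neighbours. Below them came the ANS copy Bra013652 in both groups, and then the DFR gene, TT8 and the ANS copy Bra019350, with TT8 before Bra019350 in msm and after it in wild type. The ranges of neighbours overlapped among these last genes. The 5 strongly read members also varied little within a group, with coefficients of variation of 3.54% to 8.08% in msm and 5.25% to 7.44% in wild type. Wild type 2 was the lowest wild-type library for 4 of these 5 genes, and msm 1 the lowest msm library for 4 of them.

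In the late branch, the ANS gene Bra013652 was the best read member. It had 0.949, 0.887 and 1.49 RPKM (26, 25 and 40 reads) in the msm libraries, against 2.19, 0.9997 and 1.82 RPKM (60, 27 and 49 reads) in the wild-type libraries. Wild type 2 lay within the msm range, so the groups overlapped. Its log2 fold change was -0.81 ± 0.29 (SE; adjusted p = 0.0187, edgeR), and the call did not hold with scaling to total counts (-0.60, adjusted p = 0.0733, edgeR). It was also lost without wild type 1 (adjusted p = 0.161), wild type 4 (0.0622) or msm 2 (0.0692), in edgeR. With 1 library left out the log2 fold change ran from -0.57 without wild type 1 to -1.09 without wild type 2 (adjusted p = 0.00269, edgeR), and it passed 2-fold without wild type 2 or msm 3 (-1.08, adjusted p = 0.00957, edgeR).

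The other ANS copy, Bra019350, had 4, 10 and 11 reads in the msm libraries, against 7, 2 and 5 reads in the wild-type libraries. It was not tested, and its groups overlapped. Its share of the summed ANS level was 21.2% ± 7.64 in msm and 8.89% ± 1.81 in wild type (SD, n = 3 each), without overlap (exact permutation p = 0.1, adjusted p = 0.125). With so few reads the exact 95% binomial interval of its share of reads ran from 11.3% to 35.3% in msm 3, against 4.3% to 20.3% in wild type 1, and such intervals cover counting error only. Summed, the ANS copies had 1.1, 1.24 and 1.9 RPKM in the msm libraries, against 2.45, 1.07 and 2.01 RPKM in the wild-type libraries, at a log2 fold change of -0.61 ± 0.28 (SE; adjusted p = 0.0652, edgeR). The sum was called lower without wild type 2 (-0.89, adjusted p = 0.00767) or msm 3 (-0.87, adjusted p = 0.0254), in edgeR.

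DFR, the first enzyme of the late branch, was barely read. Bra027457 had 16, 12 and 7 reads in the msm libraries, against 4, 11 and 9 reads in the wild-type libraries. The groups overlapped, and at a log2 fold change of 0.30 ± 0.50 (SE; adjusted p = 0.628, edgeR) a difference was not detectable at this depth. Its direction was not settled, since the log2 fold change was -0.0273 without wild type 1, 0.00767 without msm 1, 0.55 without msm 3 and 0.59 without wild type 2.

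TT8, the regulator, was the single member called higher by at least 2-fold, on few reads. Bra037887 had 20, 12 and 11 reads in the msm libraries, against 2, 1 and 7 reads in the wild-type libraries, or 0.376 ± 0.131 RPKM in msm and 0.089 ± 0.0863 RPKM in wild type (SD, n = 3 each). Every msm library lay above every wild-type library, as for 47.5% of all tested genes in RPKM and 29.3% on the TMM scale. The nearest libraries were msm 3 with 11 reads and wild type 4 with 7 reads. Their exact 95% Poisson intervals overlapped, at 5.49 to 19.7 and 2.81 to 14.4 reads. The log2 fold change was 1.83 ± 0.59 (SE; adjusted p = 0.00949, edgeR). TT8 reached the filter of 10 reads in 3 libraries through msm alone, so this p rests in part on that selection, and without the filter the log2 fold change was 1.82 (adjusted p = 0.0141, edgeR). The call was lost without msm 1 (log2 fold change 1.52, adjusted p = 0.0559), wild type 1 (1.56, 0.0547) or wild type 2 (1.40, 0.0672), in edgeR. Without wild type 4 its log2 fold change was 2.92 (adjusted p = 0.00273, edgeR). The late enzymes DFR, Bra019350 and Bra013652 all overlapped between the groups. Mean levels in msm and wild type were 0.394 and 0.275 RPKM for DFR, 0.304 and 0.172 RPKM for Bra019350, and 1.11 and 1.67 RPKM for Bra013652. A link between TT8 and these levels was not tested.

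**Figure D4:**
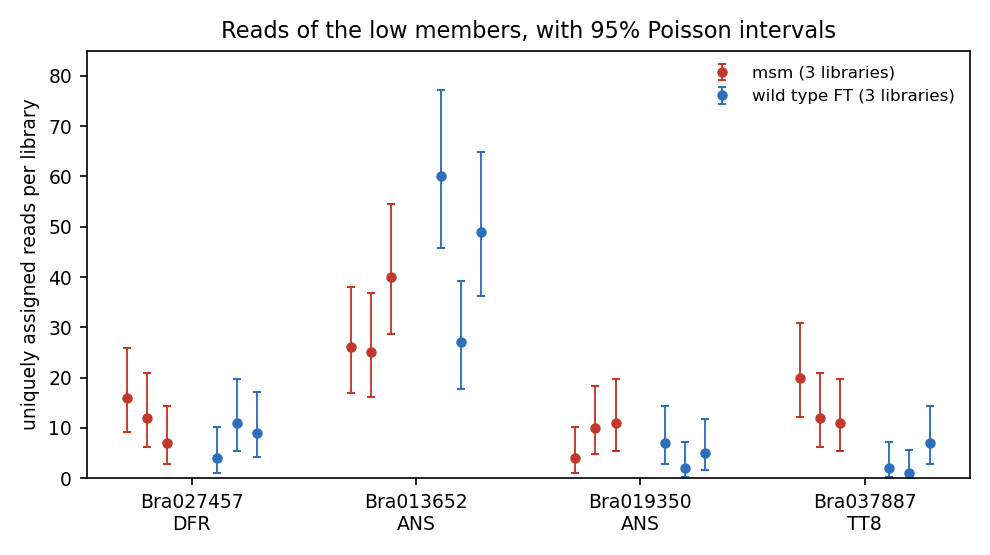
Uniquely assigned reads per library of the DFR gene, both ANS copies and TT8, msm in red at the left and wild type in blue at the right of each pair; bars are exact 95% Poisson intervals, which cover counting error only. TT8 has 11 to 20 reads per msm library, against 1 to 7 reads per wild-type library, while the groups of the other genes overlap.

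The deposited coverage, the percentage of the coding length touched by reads, broadly followed the read numbers, though not in every library of a gene. TT8, for one, was covered further in msm 2 on 12 reads than in msm 1 on 20 reads. The 5 strongly read members were covered over 98.7% to 99.92% of their length in both groups, so reads lay along the whole of these genes in both groups. TT8 was covered over 67.4%, 71.2% and 51.5% of its 1494 bases in the msm libraries, against 12.05%, 8.37% and 31.9% in the wild-type libraries. Its msm reads were therefore spread over the gene and did not pile up at one place. Bra013652 was covered over 91.6%, 72.9% and 95.5% in the msm libraries, against 94.4%, 95.5% and 99.4% in the wild-type libraries.

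Of 15406 other genes with a mean of at least 10 RPKM, the profile of summed CHS over the 6 libraries was matched most closely by Bra040701 and Bra017781, for which no names were found. The measure was the root mean square difference of centred log2(RPKM + 1) values, at 0.0209 and 0.0343. Bra040701 had 17.9 ± 0.586 RPKM in msm and 23.8 ± 1.5 RPKM in wild type (SD, n = 3 each). Bra017781 had 14.2 ± 0.237 RPKM in msm and 18.4 ± 0.893 RPKM in wild type (SD, n = 3 each). Among the copies that make up the sum, 5 of these genes came nearer to it than Bra008792 (0.0401), 479 nearer than Bra023441 (0.102) and 3673 nearer than Bra006224 (0.219). F3'H (0.123), with 892 genes nearer, lay closer to the sum than Bra006224 did, and F3H (0.337) had 7876 genes nearer. With 6 libraries in 2 groups, likeness on this scale mostly restates the size of the group difference.

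The remaining genes of the pathway, among them chalcone isomerase, flavonol synthase and the MYB regulators, could not be counted, because none of the 36 gene symbols listed for them could be paired with an identifier of the tables.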

How the data were processed

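For each library the authors deposited a table that gives, per the file headers, a count of uniquely assigned reads for every gene, with its length, the percentage of it that reads cover and its RPKM. The deposited counts are not normalized and sum to the total in the header. The authors' RPKM values follow from count, length and total. All lengths are multiples of 3, so they are coding lengths. DESeq is named in the submitters' processing notes without a version or role. The sources used here do not give the aligner, counter, strand setting or genome build. A gene with no row in a table was taken to have 0 reads. Of the 35421 identifiers 1, and none of the members, matched the RefSeq table (CAAS_Brap_v3.01).

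Counts were tested with edgeR 4.0.16 in R 4.3.3 (TMM scaling, default expression filter, robust quasi-likelihood fit), where the standard error is the fitted log2 fold change over the root of F. Copies of CHS and ANS were also summed and refitted. Shares and step ratios were compared with exact permutation tests (SciPy 1.17.1). Alternatives were other scalings, filters and thresholds, DESeq2 1.42.0, limma 3.58.1 on log2 RPKM with 3 pseudocounts, the replicate number as a block, and each library left out. The fits were tested on simulated data. No library was treated as a second sequencing run of another, since differences within groups exceeded counting noise (chi-square per degree of freedom of 3.08 to 9.17). That excess does not show that the libraries came from separate plants. Members and lists were chosen with earlier results of these data known. All members are named, and beyond them the 2 genes nearest to summed CHS.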

Additional observations from a re-analysis of the deposited data

How the results depend on the processing

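Directions held for all tested members under every alternative run, except for DFR (Bra027457), whose log2 fold change was -0.0273 without wild type 1 and up to 0.588 with another library left out; the cause was not tested. The number of members called lower was 0 with total count scaling, upper quartile scaling, limma with pseudocounts of 0.1, 1 and 5 RPKM and the test against a 2-fold change, 5 with no fold threshold, and 1 to 2 with a library left out; in all 3 CHS copies with reads the sign stayed negative. The number called higher was 0 with at least 1 CPM in 3 libraries (which TT8 did not reach), limma with pseudocounts of 1 and 5 RPKM and the test against a 2-fold change, and 0 to 1 with a library left out. Summed CHS, at -0.604, was not called against a 2-fold change, and it ran from -0.666 to -0.580 with a library left out. Summed ANS was called with no filter on low counts (-0.611, adjusted p = 0.0396, edgeR), and ran from -0.887 to -0.349 with a library left out, called without wild type 2 or msm 3. Differences in shares and step ratios kept their sign in every alternative. With a library left out, that of the Bra023441 share ran from 5.01 to 6.44 percentage points. That of the log2 ratio of F3H to CHS ran from 0.63 to 0.72. Leaving out 1 of 3 libraries can move a group mean by only part of its spread, so these ranges are no separate check.

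The groups share the replicate numbers 1 and 2. Across genes, deviations of libraries of the same number correlated at -0.214 and 0.168. For libraries of different numbers the correlations ran from -0.320 (msm 2 with wild type 4) to 0.363 (msm 1 with wild type 4). The numbers were therefore not taken to pair the libraries. With the number as a block, msm 3 and wild type 4 stood alone in theirs. The group difference therefore rested on libraries 1 and 2 of each group. In that fit 1 member was called lower and 1 higher, as without the block. The log2 fold change of TT8 was 3.08 there and 2.92 without wild type 4, its highest wild-type library at 7 reads.

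Depth limits DFR, ANS and TT8, with at most 60 reads in a library.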
